A study of Mus musculus with 10 samples.

Results

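The genes described here are targets of NRF2, the transcription factor that drives much of the cell's antioxidant response. They were chosen by name, with earlier results of these data known. Every Ensembl transcript annotated to Hmox1, Nqo1, Gclc, Gclm, Srxn1, Txnrd1, Slc7a11, Osgin1, Sqstm1 and G6pdx was taken from the count data. Of these 10 genes, 8 had at least 1 transcript among the 22534 listed, 9 transcripts in all, and Nqo1 and Slc7a11 were not analysed here. Of the 9 transcripts, 7 from 6 genes were among the 7262 measured transcripts, those with at least 10 RPKM (reads scaled to transcript length and library size) in RNAseq and in ribosome footprinting (RF) of the same culture in at least 2 cultures. Osgin1 and G6pdx were listed but did not reach that level.

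The study asked how sustained neuronal depolarization changes transcript abundance and translation. Cells were taken from the cortex of male and female FVB mouse pups at P0 and grown for 7 days into mixed cultures, which hold glia beside the neurons, and were then either left untreated (cultures 1, 2 and 3) or depolarized with KCl at a final 55 mM for 3 h (cultures 4 and 5). Cycloheximide, an inhibitor that arrests ribosomes on the mRNA, was given to untreated and KCl cultures alike for 7 min before lysis, and each lysate gave an RNAseq and an RF library. The methods state that KCl replicate 3 was removed for its small library, so the KCl group rests on 2 cultures, and p-values measure the spread between these cultures, which the labels do not tie to separate litters. In such bulk samples, fewer cells of a type and less RNA per cell cannot be told apart.

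NRF2 is normally held in the cytoplasm by KEAP1, an adaptor that hands it to a CUL3 ubiquitin ligase for destruction. Oxidants and electrophiles modify KEAP1, NRF2 then accumulates, pairs with a small MAF protein and binds the antioxidant response element (ARE) of its targets, a site that overlaps in sequence with the AP-1 element bound by FOS and JUN factors. In brain cultures the pathway is best known from astrocytes, which supply neighbouring neurons with precursors of glutathione. The target genes make glutathione, recharge thioredoxin and peroxiredoxins, degrade heme, supply NADPH and, through p62, mark damaged cargo for autophagy.

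The proximal promoters of the listed genes were read from RefSeq on GRCm38.p6, which held 8 of the 10 genes, without Hmox1 and Gclc. Both strands of the 250 bases before each gene's start were searched for the ARE core, spelled TGACNNNGC or TGAGNNNGC, and for AP-1, spelled TGACTCA or TGAGTCA, a match that can lie inside an ARE core. An ARE core was found in 25.7% of the 27025 genes in that table and in 6 of these 8, and an AP-1 match in 5.16% of all genes and in Srxn1 and Osgin1. Nqo1 and Sqstm1 were searched and had neither match. The matches upstream of the listed transcripts are shown because, of the genes that carry them, Srxn1 fell and Txnrd1 rose after KCl. Each line gives the plus strand, which is the coding strand of all 4 genes, with 10 bases on each side and the match in capitals.
Srxn1, ARE 158 bases before the start, chr2:152105356-152105384: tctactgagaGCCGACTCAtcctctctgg
Srxn1, AP-1 102 bases before the start, chr2:152105412-152105438: tcggagggccTGAGTCAccacgctgtg
Srxn1, ARE with an AP-1 match inside it 45 bases before the start, chr2:152105469-152105497: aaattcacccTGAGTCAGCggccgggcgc
Osgin1, ARE with an AP-1 match inside it 99 bases before the start, chr8:119437038-119437066: aggggcccctGCTGACTCAcgcttatgaa
Gclm, ARE 134 bases before the start, chr3:122245413-122245441: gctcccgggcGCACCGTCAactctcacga
Txnrd1, ARE 92 bases before the start, chr10:82859104-82859132: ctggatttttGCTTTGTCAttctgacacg

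A match is a description of these letters and not a binding site. Of the genes shown, Srxn1, with the most matches, fell after KCl in RNAseq and RF, Txnrd1 rose in both, Gclm did not pass the test in either, and Osgin1 was too low to be measured.

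KCl moved the 6 measured target genes in different directions. Hmox1, Sqstm1 and Txnrd1 rose in both RNAseq and RF, Srxn1 fell in both, and Gclc and Gclm did not pass the test in either. These 4 of 6 genes passed an adjusted p of 0.05 in RNAseq, against 33.0% of all measured transcripts (17.9% higher and 15.1% lower), and the same 4 passed it in RF, against 40.9% of all (20.8% higher and 20.1% lower). The median log2 fold change of the 6 was 0.26 in RNAseq and 0.23 in RF, beside medians of -0.0045 and -0.01 over all measured transcripts. Because the genes were chosen with earlier results known, these shares and medians are no test of the set. No gene of the 6 passed the test of translation efficiency (TE), the ratio of RF to RNAseq. Levels below are normalized CPM, reads scaled to library size with TMM factors within each assay, given culture by culture in the order 1, 2, 3 for untreated and 4, 5 for KCl, and folds are KCl over untreated.

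**Figure D1:**
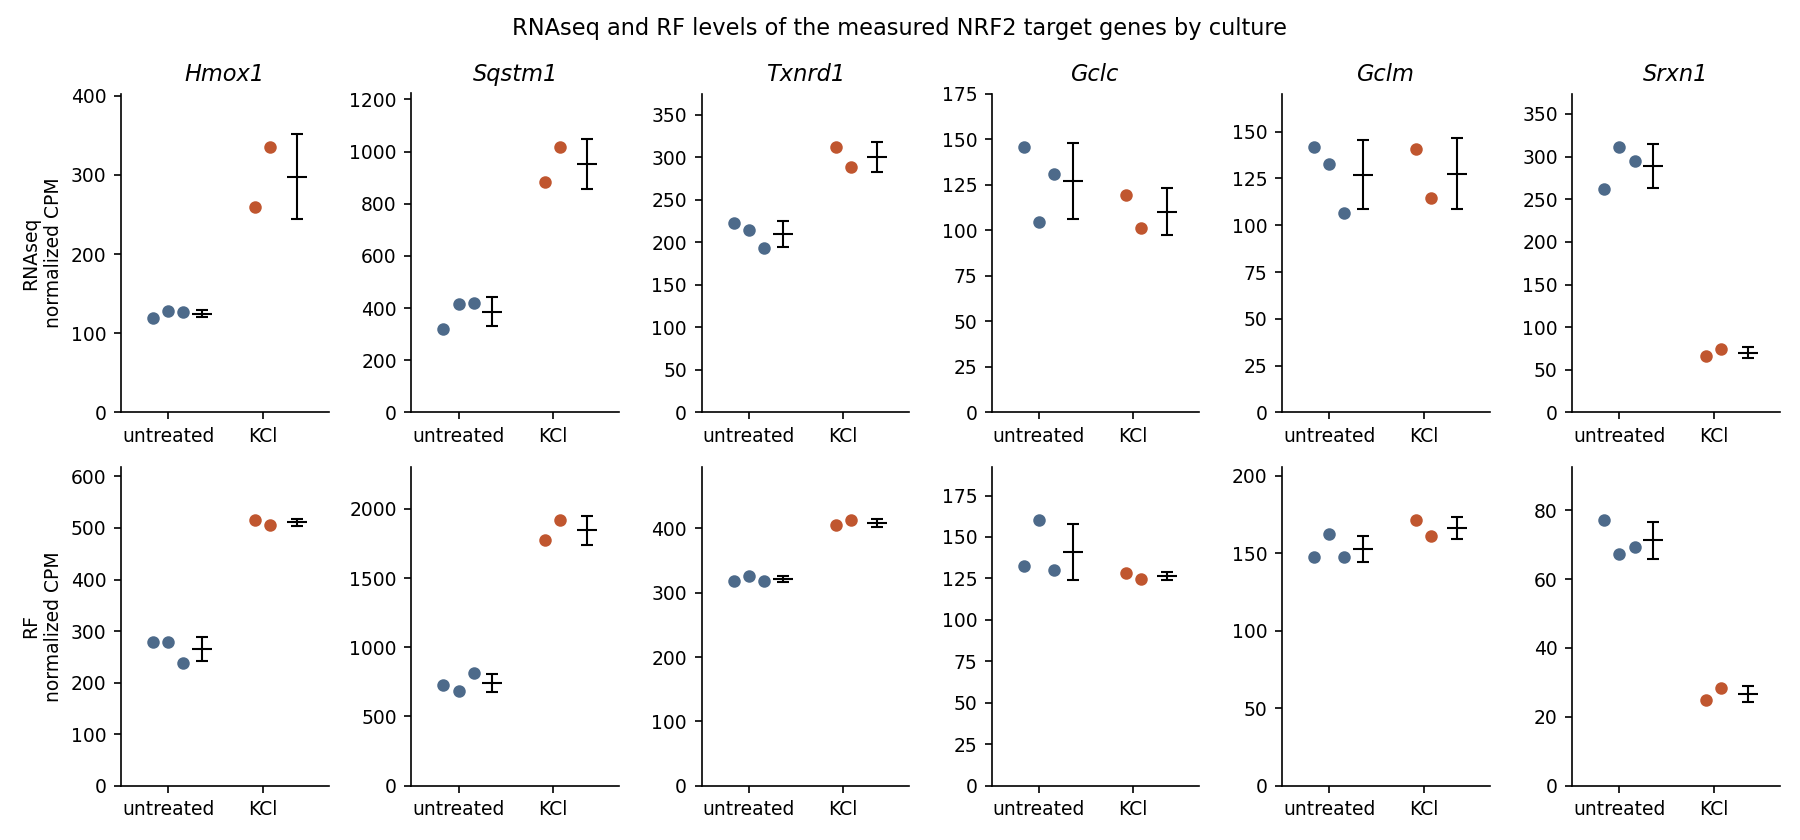
Normalized CPM in RNAseq (upper panels) and RF (lower panels) of the 6 measured NRF2 target genes; each point is 1 culture, blue for the 3 untreated and orange for the 2 KCl cultures, and the black bar is the mean with its SD. The KCl points of Hmox1, Sqstm1 and Txnrd1 lie above all untreated points in both assays, those of Srxn1 lie below, and the RNAseq points of Gclc and Gclm overlap.

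Hmox1 encodes heme oxygenase 1, the inducible enzyme that cleaves heme to biliverdin, carbon monoxide and free iron (ENSMUST00000005548, 5 exons, chr8:75093621-75100589, plus strand). Its RNAseq level was 119.4, 128.3 and 126.7 without and 260.1 and 335.7 with KCl. The untreated cultures lay within a narrow band (mean 124.8 ± 4.74, SD, n = 3), and both KCl cultures stood above it, with culture 5 the higher. The log2 fold change was 1.26 (approximate SE 0.14, 2.39-fold, adjusted p = 2.5e-09). In RF the untreated cultures gave 279.6, 278.9 and 237.8 and the KCl cultures 515.7 and 506.6, a log2 fold change of 0.93 (SE 0.09, adjusted p = 2.5e-09). The RF groups did not overlap either, and the KCl cultures differed from each other by less in RF (511.1 ± 6.45, SD, n = 2) than in RNAseq (297.9 ± 53.4).

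Sqstm1 encodes p62, the receptor that carries ubiquitylated cargo to autophagosomes and that itself binds KEAP1. In untreated cultures its level per length was 150.5 RPKM in RNAseq over the whole transcript and 414.4 RPKM in RF, the highest of the 6 genes. On RNAseq reads of the CDS alone, per CDS length, it was 37.0, 58.9 and 47.1 RPKM, below Hmox1 at 64.7, 68.6 and 63.8 in every untreated culture. The RNAseq level of its more abundant transcript (ENSMUST00000102774, 8 exons, chr11:50200152-50210827, minus strand) was 321.4, 416.6 and 419.1 before and 884.0 and 1019 after KCl, a 2.47-fold rise (log2 1.30, SE 0.13, adjusted p = 1.5e-10). RF rose alongside it, from 724.5, 682.4 and 813.7 to 1772 and 1920 (log2 1.33, SE 0.08, 2.51-fold, adjusted p = 2.7e-13). Every KCl culture was above every untreated culture in both assays. The other listed transcript (ENSMUST00000015981) rose by 1.28 in RNAseq and 1.32 in RF on the log2 scale. Its RNAseq counts were close to those of the first (822 to 2716 against 826 to 2780), and reads that map to several transcripts were kept, so the 2 are not separate observations. Exons of Mrnip on the opposite strand cover 580 of its bases, and the double-stranded cDNA keeps no mark of strand.

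Txnrd1 encodes the cytosolic thioredoxin reductase, the selenoenzyme that uses NADPH to recharge thioredoxin (ENSMUST00000020484, 14 exons, chr10:82859179-82897712, plus strand). RNAseq gave 223.3, 214.2 and 193.0 untreated and 312.7 and 288.4 with KCl, and RF gave 318.4, 326.5 and 318.4 untreated and 404.6 and 413.3 with KCl. The groups did not overlap in either assay, although the rise was the smallest of the 3. It came to 1.43-fold in RNAseq (log2 0.51, SE 0.13, adjusted p = 0.0022) and 1.27-fold in RF (log2 0.35, SE 0.09, adjusted p = 0.0018). Without KCl culture 4 the RNAseq change was 0.45 on the log2 scale at an adjusted p of 0.063, and on CDS reads alone it was 0.46 at 0.056. Without KCl culture 5 the RF change was 0.33 at 0.062.

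Srxn1 encodes sulfiredoxin, which restores peroxiredoxins that hydrogen peroxide has over-oxidized (ENSMUST00000041500, 2 exons, chr2:152105524-152111376, plus strand). Its RNAseq level was 261.5, 311.7 and 294.8 in untreated cultures and 65.75 and 74.76 in KCl cultures. The highest KCl culture was thus far below the lowest untreated one, and the gene fell by 2.04 on the log2 scale (SE 0.16, 4.11-fold lower, adjusted p = 1.1e-13). RF fell as well, from 77.2, 67.2 and 69.3 to 24.9 and 28.3, by 1.41 on the log2 scale (SE 0.18, 2.65-fold lower, adjusted p = 3.5e-07). The RF values of cultures 3, 4 and 5 rest on 74, 28 and 61 footprints, and those of cultures 1 and 2 on 446 and 331. The direction and the call held in RNAseq and RF when each culture was left out in turn.

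Glutamate-cysteine ligase, the enzyme that sets the rate of glutathione synthesis, has a catalytic subunit encoded by Gclc and a modifier subunit encoded by Gclm. Gclc (ENSMUST00000034905, 16 exons, chr9:77754535-77794485, plus strand) gave RNAseq levels of 145.9, 104.5 and 130.8 untreated and 119.2 and 101.1 with KCl, and RF levels of 132.4, 160.3 and 130.2 untreated and 128.0 and 124.8 with KCl. In RNAseq the groups overlapped. In RF both KCl cultures lay just below the lowest untreated culture, by less than the spread among untreated cultures (141.0 ± 16.8, SD, n = 3). The log2 fold changes were -0.21 (SE 0.16, adjusted p = 0.34) and -0.18 (SE 0.13, adjusted p = 0.27).

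Gclm (ENSMUST00000029769, 7 exons, chr3:122245557-122270732, plus strand) gave 142.0, 132.6 and 106.3 untreated and 141.0 and 114.3 with KCl in RNAseq. In RF it gave 147.8, 162.3 and 147.9 untreated and 171.6 and 161.4 with KCl. The groups overlapped in both assays, with log2 fold changes of 0.01 (SE 0.16, adjusted p = 0.99) and 0.11 (SE 0.11, adjusted p = 0.45).

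Over the 6 genes, the KCl cultures lay beyond all untreated cultures for 4 in RNAseq and 5 in RF. Among all measured transcripts this held for 54.8% and 61.3%, so that with 3 against 2 cultures the separation of the groups alone says little about a gene.

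Osgin1, which encodes an oxidative stress-induced growth inhibitor, stayed below the RPKM minimum in all 10 libraries. RNAseq counted 25, 20 and 28 reads in untreated and 18 and 11 in KCl cultures on its only listed transcript (ENSMUST00000098365), and without the RPKM filter its log2 fold change was -0.71 (SE 0.43, adjusted p = 0.28), in a fit where 18.5% of the 22374 transcripts were called. Its footprints lay mainly outside the annotated CDS. Of 74, 32, 13, 9 and 34 footprints in cultures 1 to 5, between 59.4% and 67.6% fell on the 3′UTR, where a library as a whole had between 0.375% and 0.710%. In the annotation, 916 of the 1267 3′UTR bases of this transcript are coding sequence in another Osgin1 transcript with a longer reading frame. The CDS count of 2 to 14 footprints therefore leaves out footprints on those bases, and no TE is given.

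G6pdx encodes glucose-6-phosphate dehydrogenase, which makes NADPH at the entry of the pentose phosphate pathway. Its RNAseq counts were 178, 147 and 110 untreated and 94 and 147 with KCl, which overlapped (log2 fold change -0.24, SE 0.20, adjusted p = 0.46, without the RPKM filter). No read of either assay was counted on its CDS in any of the 10 libraries. The authors aligned to a transcriptome from which degenerate sequence had been removed, and G6pd2, an intronless copy of the G6pdx coding sequence, was not among the listed genes. A CDS count of 0 is thus no measure of its translation. RF counted only 12, 3, 0, 0 and 5 footprints in cultures 1 to 5, all on the 5′UTR.

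TE describes how many footprints a transcript carries for its abundance. In untreated cultures the order of the target genes depended on the RNAseq reads that TE was set against. With reads of all regions over the whole transcript length, Gclm had a TE of 7.74 ± 0.96 (SD, n = 3), above 98.4% of measured transcripts, Hmox1 3.61 ± 0.47, Txnrd1 3.18 ± 0.17, Sqstm1 2.80 ± 0.46, Gclc 1.92 ± 0.59 and Srxn1 1.41 ± 0.25, beside a median of 1.69 over all measured transcripts. On this scale the cultures of Gclm (6.72 to 8.63) did not overlap those of any other target gene. Hmox1 overlapped with Txnrd1, Sqstm1 with Hmox1, Txnrd1 and Gclc, and Gclc with Srxn1. With RNAseq reads of the CDS alone, per CDS length, Gclm TE was 3.06, 2.98 and 3.93, above 70.5% of the 7200 measured transcripts with CDS reads in every untreated culture. It then overlapped with Hmox1 (3.14 to 3.73), Srxn1 (3.29 to 6.04) and Gclc (2.38 to 3.85) and lay below Txnrd1 (4.85 to 6.07) and Sqstm1 (6.57 to 11.1). The RNAseq level of Gclm was likewise 18.0 RPKM over the whole transcript, the lowest of the 6, but 42.4 RPKM on the CDS, above Gclc, Srxn1 and Txnrd1. In RF, which reads the CDS, it was 138.1 RPKM, above 88.6% of measured transcripts. These orders are descriptions with no test.

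**Figure D2:**
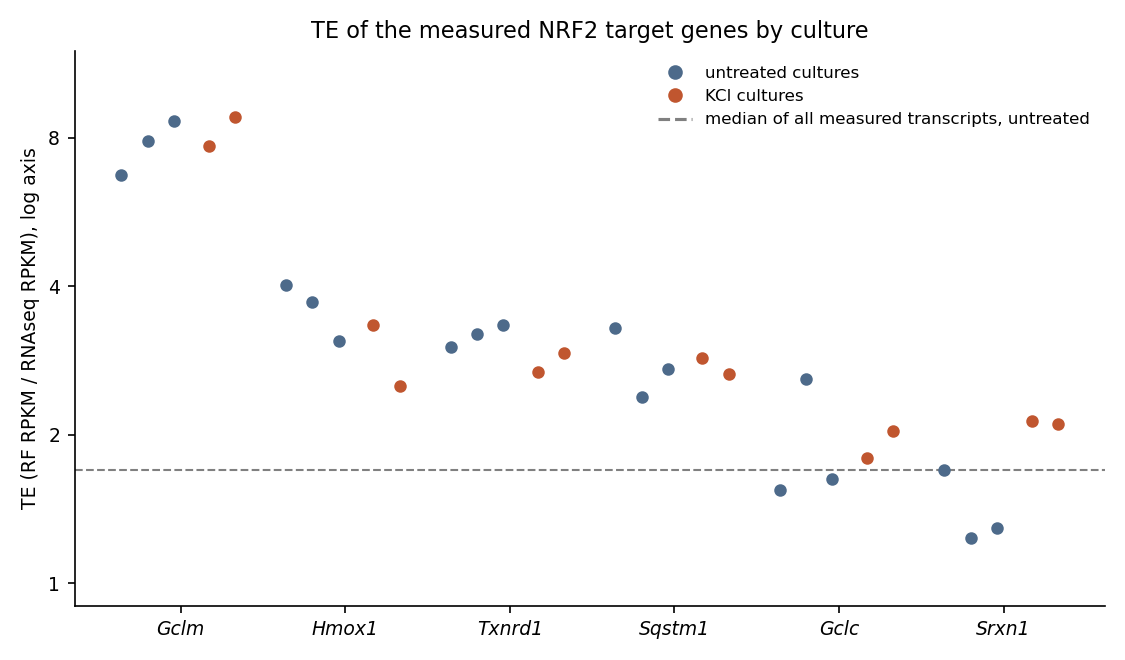
TE (RF RPKM over RNAseq RPKM of all regions in the same culture, log axis) of the 6 measured NRF2 target genes; each point is 1 culture, blue for untreated and orange for KCl, and the dashed line is the untreated median of all measured transcripts, 1.69. Gclm lies near 8 in both groups, and the KCl cultures of Srxn1 (2.13 and 2.10) lie above its 3 untreated cultures (1.23 to 1.70).

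After KCl, TE passed an adjusted p of 0.05 for 0 of the 6 genes in edgeR, where 5.80% of all measured transcripts were called. DESeq2 also called 0 of the 6 at that adjusted threshold, and at an unadjusted p under 0.05 each tool had 1, Srxn1. Srxn1 TE was 1.70, 1.23 and 1.30 untreated and 2.13 and 2.10 with KCl, so the groups did not overlap, and its log2 change was 0.61 (SE 0.27, unadjusted p = 0.021, adjusted p = 0.18 by edgeR's quasi-likelihood test). Leaving out untreated culture 1 moved it to 0.77 at an adjusted p of 0.048, and the other 13 of 14 alternatives did not call it. When single cultures were left out the change ran from 0.488 to 0.77, and over all settings from 0.488 to 1.071. Txnrd1 TE was 3.01, 3.20 and 3.34 untreated and 2.67 and 2.93 with KCl, also without overlap, with a log2 change of -0.16 (SE 0.17, adjusted p = 0.71). For 33.6% of all measured transcripts the KCl cultures lay beyond all untreated cultures in TE. Hmox1 changed by -0.31 (SE 0.18, adjusted p = 0.36), Gclm by 0.14 (SE 0.21, adjusted p = 0.82), Gclc by 0.05 (SE 0.22, adjusted p = 0.95) and Sqstm1 by 0.01 (SE 0.17, adjusted p = 0.98), and the TE of all 4 overlapped between the groups. These standard errors leave room for changes of TE in either direction.

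Counts per region were also compared along each transcript. The ratio of 3′UTR to CDS reads in RNAseq was higher in both KCl cultures than in all untreated cultures for 2 of the 6 target genes, Hmox1 and Gclc, against 17.8% of the 7185 measured transcripts with CDS reads in every RNAseq library. The ratio of RNAseq reads on the 3′UTR to those on the CDS was 0.350, 0.380 and 0.503 for Hmox1 in untreated cultures and 0.930 and 0.784 in KCl cultures. Pooled over all measured transcripts it was between 1.15 and 1.23 untreated and 1.25 and 1.32 with KCl. The Hmox1 groups did not overlap, and its RNAseq log2 fold change was 0.85 on CDS reads alone (SE 0.17, adjusted p = 8.4e-06) and 1.79 on 3′UTR reads alone (SE 0.20, adjusted p = 7e-18). The gene was called on either region, but its size was 1.80-fold on the CDS and 3.46-fold on the 3′UTR. Set against CDS reads of RNAseq only, its TE change was 0.10 in place of -0.31.

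Gclc behaved likewise. Its ratio of 3′UTR to CDS reads was 1.75, 1.62 and 1.76 untreated and 2.85 and 2.74 with KCl. CDS reads alone numbered 136, 101 and 116 untreated and 75 and 73 with KCl, a log2 fold change of -0.65 (SE 0.22, adjusted p = 0.021), against -0.06 (SE 0.18, adjusted p = 0.91) on the 3′UTR. The RNAseq call of Gclc thus depends on the region counted. Across all measured transcripts, 21.1% were called on CDS reads alone and 24.6% on 3′UTR reads alone. The difference between the regions was itself not tested, and RF, which reads the CDS, gave -0.18 for Gclc.

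**Figure D3:**
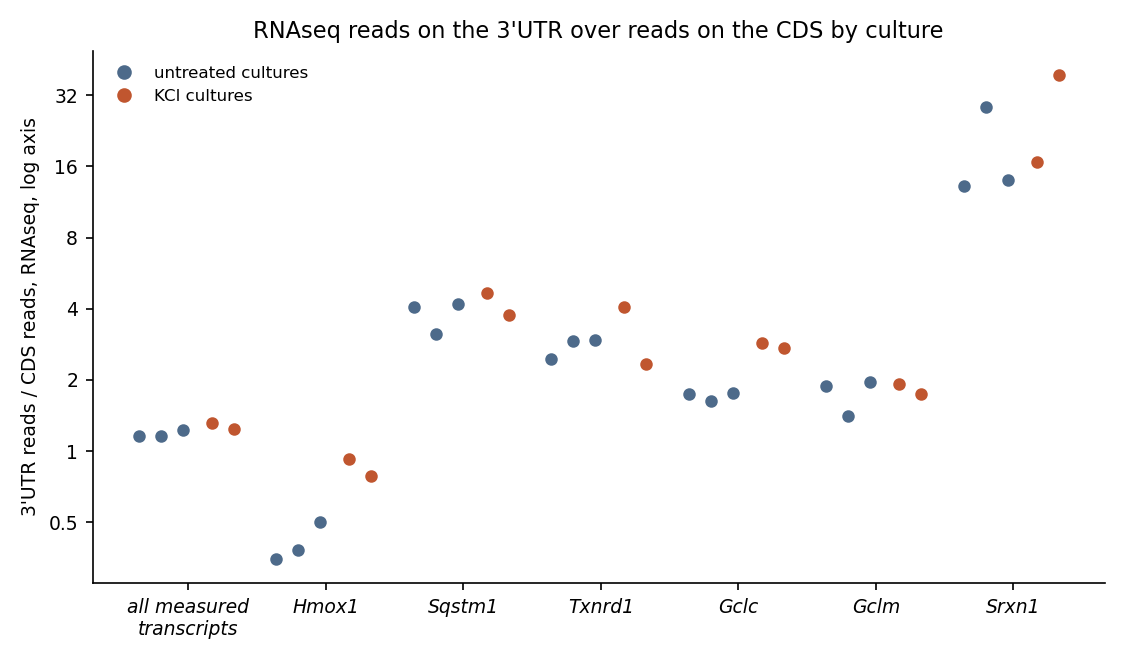
RNAseq reads on the 3′UTR over reads on the CDS (log axis) for all measured transcripts pooled and for the 6 measured NRF2 target genes; each point is 1 culture, blue for untreated and orange for KCl. The KCl cultures lie above the untreated ones for Hmox1 and Gclc, by more than the pooled value moved, and overlap with them for Sqstm1, Txnrd1, Gclm and Srxn1.

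Sqstm1, Txnrd1 and Gclm kept ratios in overlapping ranges. For Srxn1 nearly all RNAseq reads lay on the 3′UTR, with 47, 27 and 47 CDS reads untreated and 9 and 5 with KCl, and the log2 fold change was -2.49 on the CDS and -2.08 on the 3′UTR. Srxn1 also had an unusual share of its footprints on the 3′UTR, 11.5% (95% exact binomial interval 8.89 to 14.6) in untreated culture 1 and 12.1% (8.98 to 15.8) in untreated culture 2. In untreated culture 3 it was 15.9% (8.98 to 25.2), from 14 of 88 footprints. KCl culture 4 had 4 of 33 footprints there and KCl culture 5 had 5 of 67, and the intervals, which cover counting error only, overlapped. Of measured transcripts with at least 100 footprints, between 1.20% and 2.52% had a 3′UTR share of 5% or more in a library.

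The regulators of the pathway were described from a list of 10 genes, of which 8 were listed and 6 measured. Keap1 and Bach2 were not analysed here, and Rbx1 and Bach1 did not reach the RPKM minimum in both assays. Rbx1 had 28.3 to 43.8 RPKM in RNAseq but no CDS footprint in any library. Whether its CDS was among the degenerate sequence removed before alignment was not tested, so this count is no measure of its translation. Bach1 had 5.54 to 6.85 RPKM in RNAseq and 16.3 to 30.3 RPKM in RF. Without the RPKM filter, edgeR's quasi-likelihood test gave Bach1 a log2 fold change of 0.89 in RF (SE 0.15, adjusted p = 1.4e-07). In RNAseq it was 0.26 (SE 0.20, adjusted p = 0.43) and in TE 0.64 (SE 0.27, adjusted p = 0.28). Of the 6 measured, 4 rose and 0 fell in RNAseq, 5 rose and 1 fell in RF, and 0 were called in TE by edgeR or DESeq2, with 1, Nfe2l1, at an unadjusted p under 0.05 in each. The shares over all measured transcripts were 17.9% rising and 15.1% falling for RNAseq, against 20.8% rising and 20.1% falling for RF. Mafk and Mafg reached the RPKM minimum in KCl cultures only, so that their place on the list followed from their rise. Of the other 4 regulators, 2 rose and 0 fell in RNAseq and 3 rose and 1 fell in RF, with median log2 fold changes of 0.29 and 0.54.

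Nfe2l2, which encodes NRF2 itself, had RNAseq levels of 327.6, 261.4 and 266.2 untreated and 288.9 and 297.9 with KCl. These overlapped, with a log2 fold change of 0.04 (SE 0.13, adjusted p = 0.84). On 3′UTR reads alone it was called, at 0.73 (SE 0.24, 1.66-fold, adjusted p = 0.011), and on CDS reads alone it was -0.02 (adjusted p = 0.94). In RF it gave 357.0, 450.0 and 351.1 untreated and 491.7 and 491.7 with KCl, a rise of 0.34 on the log2 scale (SE 0.10, 1.26-fold, adjusted p = 0.0075). That rise lost its call without KCl culture 4 (adjusted p = 0.054), without KCl culture 5 (0.087), under library totals (0.059) and with at least 100 reads in every library (0.064). Nfe2l1, the related factor NRF1, was lower in RF by a log2 fold change of -0.32 (SE 0.11, adjusted p = 0.021) with 0.10 in RNAseq (adjusted p = 0.59). The RF call was lost under 5 of 15 alternatives, which were DESeq2 (0.063), filterByExpr (0.093), no filter beyond 1 read (0.11) and leaving out KCl culture 4 or 5. These values are for the most abundant Nfe2l1 transcript. Of its other measured transcripts, ENSMUST00000167110 was not called in RF (-0.26, SE 0.12, adjusted p = 0.083), and the rest were. ENSMUST00000081775, ENSMUST00000107658 and ENSMUST00000107657 had the same RF counts as the most abundant transcript, so their calls are not separate observations. Cul3, the scaffold of the ligase that destroys NRF2, rose 1.40-fold in RNAseq and 1.68-fold in RF (adjusted p = 0.011 and 1.7e-06). Its RNAseq log2 fold change was 0.68 on CDS reads alone and 0.003 on 3′UTR reads alone (adjusted p = 1), and the call was also lost without untreated culture 2 (0.062) or KCl culture 4 (0.12).

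The small MAF genes, whose products pair with NRF2 at the ARE and can also pair with each other or with BACH repressors, had the largest changes of the list. Maff RNAseq was 30.7, 51.9 and 36.0 untreated and 448.3 and 409.7 with KCl, a 10.8-fold rise (log2 3.44, SE 0.16, adjusted p = 6.4e-20), and RF rose 12.2-fold (log2 3.61, SE 0.16, adjusted p = 3.8e-16). Mafk RNAseq was 8.95, 17.9 and 11.0 untreated and 107.7 and 111.4 with KCl, 8.63-fold higher, with RF 9.27-fold higher. Mafg rose 2.59-fold in RNAseq and 2.81-fold in RF. These RF values rest on few footprints, for Mafk 19, 22 and 8 untreated and 43 and 88 with KCl. For Mafg they were 49, 40 and 13 untreated and 33 and 47 with KCl. In all 3 genes the groups were far apart in both assays. On RNAseq reads of the CDS alone none of the 3 passed the test, with log2 fold changes of 1.74 (SE 1.32, adjusted p = 0.39) for Maff, 3.00 (SE 1.37, adjusted p = 0.11) for Mafk and 0.02 (SE 0.95, adjusted p = 0.99) for Mafg. On 3′UTR reads alone all 3 kept their call, with Mafg at 1.32 (SE 0.17, adjusted p = 6.1e-13).

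**Figure D4:**
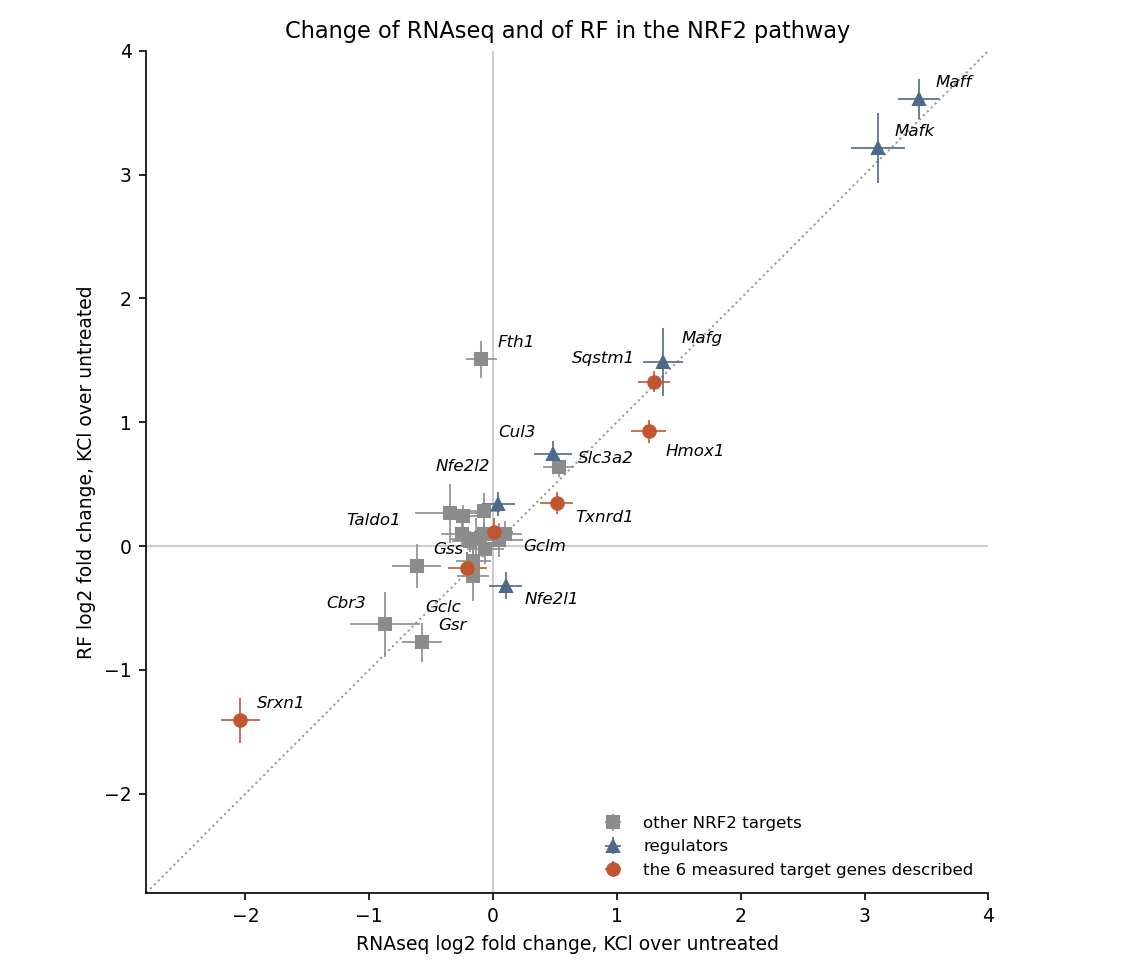
Log2 fold change, KCl over untreated, in RNAseq (horizontal) and RF (vertical) of the measured genes of the NRF2 pathway; bars are approximate SE, circles the 6 target genes described, triangles the regulators, squares the other targets, and the dotted line marks equal change. Maff, Mafk and Mafg stand at the upper right, Srxn1 at the lower left, and Fth1 well above the line.

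Among 30 further genes known as NRF2 targets, 22 were listed and 17 measured. In RNAseq 1 rose and 3 fell, in RF 3 rose and 1 fell, and 13 passed in neither direction in each assay. That is 4 of 17 genes called in each, a smaller share than the 33.0% and 40.9% of all measured transcripts. The median log2 fold changes were -0.16 and 0.06. Slc3a2, the heavy chain that carries the cystine transporter to the membrane, rose 1.44-fold in RNAseq and 1.55-fold in RF (adjusted p = 0.0011 and 2.4e-07). The size of its RNAseq rise depended on the setting. On the log2 scale it ran from 0.38 to 2.372 over all settings and from 0.38 to 0.659 without single cultures. Gsr, glutathione reductase, fell by 0.57 in RNAseq and 0.78 in RF on the log2 scale (adjusted p = 0.0042 and 0.00025). Gss, glutathione synthetase, fell by 0.62 in RNAseq (adjusted p = 0.015), with -0.16 in RF (adjusted p = 0.49), and Cbr3, a carbonyl reductase, fell by 0.87 (adjusted p = 0.015), with -0.63 in RF (adjusted p = 0.053). Cbr3 reached the RPKM minimum in untreated cultures only. The RNAseq call of Gss was lost on 3′UTR reads alone (adjusted p = 0.20) and without untreated culture 3 (0.064), KCl culture 4 (0.10) or KCl culture 5 (0.059). The RNAseq call of Cbr3 was lost on CDS reads alone (0.24) and without untreated culture 2 (0.061) or KCl culture 4 (0.15), while its RF change passed under library totals (0.023), with reads of all regions (0.034) and without untreated culture 2 (0.020). Without KCl culture 5 the RNAseq calls of Gsr (0.066) and Slc3a2 (0.096) were lost too.

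TE passed the test for 1 of these 17 genes. Fth1, the ferritin heavy chain, an iron store whose mRNA carries an iron-responsive element, had RNAseq levels of 1929, 2335 and 2447 untreated and 2118 and 2072 with KCl, which overlapped (log2 -0.09, SE 0.13, adjusted p = 0.61). Its RF level was 41.2, 46.3 and 31.8 untreated and 117.4 and 119.2 with KCl, 2.84-fold higher. The log2 change of TE was 1.58 (SE 0.19, 3.00-fold, adjusted p = 4.3e-13). Taldo1, transaldolase of the pentose phosphate pathway, rose 1.18-fold in RF (adjusted p = 0.043), a call lost under 10 of the 15 alternatives.

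Of 6 paralogs of the target genes, Hmox2 and Txnrd3 were listed, and the most abundant transcript of each was not measured. On that transcript Hmox2, the constitutive heme oxygenase, gave 7.09, 6.09 and 8.13 RPKM in RNAseq untreated and 9.11 and 10.4 RPKM with KCl. Per length Hmox2 stayed well below Hmox1, which gave 60.0 to 65.0 RPKM untreated and 124.6 and 160.8 RPKM with KCl. Transcripts ENSMUST00000118885 and ENSMUST00000120232 of Hmox2 were measured, with equal counts. The first reached the RPKM minimum in KCl cultures only, and the second in 1 untreated and 2 KCl cultures. Their place among the measured transcripts thus followed from their higher RNAseq level with KCl. Both KCl cultures lay above all untreated ones in RNAseq and below them in RF and TE. None of these changes passed edgeR's quasi-likelihood test. The log2 change was 0.52 in RNAseq (SE 0.28, adjusted p = 0.15) and -0.35 in RF (SE 0.185, adjusted p = 0.13). In TE it was -0.91 (SE 0.35, adjusted p = 0.11).

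Totals of counted reads ran from 3056286 to 3629959 in RNAseq and from 1463654 to 7719915 in RF, so the footprint values of untreated culture 3 and KCl culture 4 were the least precise. Summed RNAseq levels of cell type markers showed astrocyte markers, 9 of 9 listed, at 15490 to 16250 normalized CPM untreated and 12670 to 13100 with KCl (0.818-fold). Oligodendrocyte lineage (9 of 9, 1895 to 2040 against 1818 to 1820) and endothelial sums (6 of 6, 46.0 to 47.1 against 39.9 to 41.0) were also lower without overlap, whereas neuron (8 of 10), microglia (9 of 10) and fibroblast markers (5 of 6) overlapped between the groups. Single markers moved unevenly. Of the astrocyte markers 4 were lower in both KCl cultures than in all untreated ones and 5 overlapped, with Sox9 at 420.6, 435.7 and 420.7 untreated and 180.4 and 200.1 with KCl. Of the oligodendrocyte lineage markers 3 were lower and 6 overlapped, and of the endothelial markers 2 were lower, 2 were higher and 2 overlapped. Neuron markers had 1 higher and 7 overlapping, and microglia markers 3 higher, 2 lower and 4 overlapping. Fibroblast markers had 1 higher, 3 lower and 1 overlapping. Among all measured transcripts the RNAseq groups lay apart for 54.8%, so these counts alone say little. No listed marker was at 0 in all 5 RNAseq libraries. The part of these shifts in the results above was not tested.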

How the data were processed

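RNAseq and RF libraries of 3 untreated and 2 KCl cultures were used, grouped by their labels. The authors trimmed reads with Trimmomatic 0.32, removed rRNA with STAR 2.3.1z8, aligned with Bowtie2 2.2.2 to an mm10 transcriptome without degenerate sequence, kept reads mapping to several transcripts, and deposited raw read counts per transcript region from bedtools 2.20.1, without normalization. The letters of the regions are not defined in the files, and 3 were named by how a region's share of a transcript's RNAseq reads followed annotated length shares (Spearman's rho over 7262 transcripts 0.52 for the 5′UTR, 0.65 for the CDS and 0.68 for the 3′UTR), while 1 region stayed unnamed. The counts include positions near start and stop codons, which the methods of the study leave out for TE.

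Of 22534 transcripts, 98.4% were matched to GENCODE M21 (GRCm38) for names, lengths and coordinates. RNAseq counts of all regions and RF counts of the CDS were tested for KCl against untreated with edgeR 4.0.16 (R 4.3.3), quasi-likelihood test, TMM within each assay, Benjamini-Hochberg adjustment over all 7262 measured transcripts, with a call at an adjusted p under 0.05. TE was tested by a term for KCl within RF against RNAseq, with a replicate block for culture, since a portion of each lysate went to RNAseq and the rest to RF. Deviations of same-numbered RNAseq and RF libraries correlated between -0.073 and 0.063. Standard errors are approximate, taken as the size of the log2 change divided by the root of F. Alternatives were DESeq2 1.42.0, other scalings, filters, units and regions, no block, and leaving out each culture. The fit on 3′UTR reads alone and the untreated levels on CDS reads were added after the data were seen. The fits were tested on simulated counts.

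The genes, gene lists and tests were chosen with earlier results of these data known. Named are all 10 target genes by their most abundant transcript, the measured regulators, up to 5 rises and 5 falls among the other targets called, and the listed paralogs.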

Additional observations from a re-analysis of the deposited data

How the results depend on the processing

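For the 6 measured target genes and the 2 unmeasured ones, 275 values were computed under alternatives. Of these, 253 kept direction and side of the threshold, 3 lost the call, 2 gained it and 17 changed sign. Each sign change was in a value that passed the test in neither setting. Hmox1 TE was 0.101 with CDS reads of RNAseq only. Gclc TE was -0.023 with at least 100 reads in every library and -0.128 to 0.292 when single cultures were left out. Gclm RNAseq was -0.074 under library totals, -0.041 with at least 100 reads, -0.009 on CDS and -0.024 on 3′UTR reads alone and -0.159 to 0.15 without single cultures, and Gclm RF was -0.001 with at least 100 reads. Sqstm1 TE was -0.005 under library totals, -0.055 with at least 100 reads, -0.009 with 1 transcript per gene and -0.109 to 0.133 without single cultures. Outside the target genes, Nfe2l2 RNAseq was -0.037 under library totals, -0.003 with at least 100 reads, -0.022 on CDS reads and -0.017 to 0.149 without single cultures (and 0.733, called, on 3′UTR reads), Nfe2l1 RNAseq was -0.057 on 3′UTR reads, and Fth1 RNAseq was 0.031 on CDS reads. The causes were not tested. The 3′UTR setting, and levels and TE of untreated cultures on CDS reads, were chosen after seeing the data.

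Counts of transcripts called varied between settings. RNAseq had 2395, with 4232 under filterByExpr, 4141 with no filter beyond 1 read, 734 with at least 100 reads, 1441 with 1 transcript per gene, 1426 with counts summed per gene, 1529 on CDS reads and 1638 to 2637 without single cultures. RF had 2971, with 5342, 5311, 1085, 1744 and 1671 under the first 5 of these and 1698 (without KCl culture 5) to 3233. TE had 421, with 174 by DESeq2, 88 with at least 100 reads, 262 with 1 transcript per gene, 240 summed, 266 with CDS reads of RNAseq, and 70 (without KCl culture 5) to 547 without single cultures, 143 without KCl culture 4. Target genes called in TE numbered 0, or 0 to 1 without single cultures. With no replicate block TE had 420 calls, and 0 of the target genes as with the block.

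Library totals moved the median log2 fold change of all measured transcripts from -0.01 to -0.113 in RF. A fit without 1 KCl culture assumes that the remaining one varies like the untreated cultures. With 2 KCl cultures and few footprints in cultures 3 and 4, small changes of TE were not detectable.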
